A study of Mus musculus with 2 samples.

Results

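The cytosolic ribosomal protein genes were followed in RNA of mouse whole colon, in a Villin-Cre control and in EP4 cKO mice (Villin-Cre; EP4flox/flox). They were taken as every gene with a symbol that starts with Rpl or Rps and a number, together with Rpsa, Rplp0, Rplp1 and Rplp2, without the Rps6k kinases and without pseudogenes. The rule named 89 of the 22909 genes that could be named on the arrays, with 152 probes. Of the 89, 31 encode proteins of the small subunit, 43 proteins of the large subunit and 3 the stalk proteins. A further 10 are paralogs, with l, l1 or rt after the number of another member, and 2 carry such a symbol without encoding a protein of the ribosome (Rps19bp1 and Rps23rg1).

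The study asked what loss of the prostaglandin E2 receptor EP4 in the gut epithelium does to the colon. Both genotypes were on the C57BL/6 strain, carried the Villin-Cre transgene and were 8 weeks old by the methods, and the EP4 cKO mice carried in addition the floxed alleles of Ptger4, the gene of EP4. The Villin promoter drives Cre in the intestinal epithelium, whereas the RNA came from the whole colon wall, so stroma, muscle and immune cells that keep the receptor were measured with it. Each genotype had 1 Agilent array with 1 colour (Cy3), for which RNA of 3 pools of colon was combined by the labels. There was therefore no replicate, no difference has a replicate check, and each value below describes these arrays only. Ptger4 itself had a normalized signal of 6227 in the control and 5661 in the EP4 cKO by its brighter probe (log2 ratio -0.14), and of 393 and 592 by the other (0.59). Whether these probes lie in the deleted part of the gene was not determined here, so they do not check the label of the array labelled EP4 cKO.

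A ribosome is built of ribosomal RNA and of one copy of most ribosomal proteins, which are made in matched amounts from mRNAs among the most abundant of any cell. Those mRNAs begin with a run of pyrimidines, the terminal oligopyrimidine (TOP) motif, through which the kinase complex mTORC1 and the protein Larp1 control their translation. In the colon, where the epithelium renews itself from crypts, ribosome production is high in dividing crypt cells and declines as cells mature.

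The starts of 14 of these genes are shown because the run of pyrimidines at the start is what sets this class of mRNA apart. RefSeq start windows (build GRCm38.p6) were given for 68 of the 89 genes. Each line holds 30 bases, 10 before and 20 after the annotated start, on the strand of the gene, and the capitals mark its longest unbroken run of C and T. First come the genes with the lowest log2 ratios of EP4 cKO over Villin-Cre among those with a window.
Rps15a, chr7:118116128-118116157, minus strand: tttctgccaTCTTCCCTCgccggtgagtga
Rpl37a, chr1:72711250-72711279, plus strand: CTCgccggtctaaaaccgcgcatgcgcatt
Rps9, chr7:3704031-3704060, plus strand: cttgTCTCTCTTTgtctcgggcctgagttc
Rps28, chr17:33824543-33824572, minus strand: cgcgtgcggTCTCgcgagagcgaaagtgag
Rpl10a, chr17:28328461-28328490, plus strand: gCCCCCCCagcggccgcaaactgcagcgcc
Then follow 4 genes chosen, after the sequences were seen, as examples of long runs.
Rps6, chr4:86857348-86857377, minus strand: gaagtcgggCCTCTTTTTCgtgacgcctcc
Rplp2, chr7:141447641-141447670, plus strand: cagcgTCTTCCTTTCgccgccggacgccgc
Rpl28, chr7:4792955-4792984, plus strand: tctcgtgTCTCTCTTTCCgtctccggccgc
Rpl35, chr2:39005112-39005141, minus strand: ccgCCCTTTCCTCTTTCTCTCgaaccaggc
The last are the genes with the highest log2 ratios among those with a window.
Rpl36al, chr12:69184048-69184077, minus strand: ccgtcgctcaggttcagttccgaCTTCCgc
Rpl27, chr11:101442235-101442264, plus strand: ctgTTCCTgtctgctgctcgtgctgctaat
Rpl7l1, chr17:46782637-46782666, minus strand: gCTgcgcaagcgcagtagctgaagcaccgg
Rpl22l1, chr3:28805498-28805527, plus strand: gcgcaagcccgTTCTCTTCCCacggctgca
Rps27l, chr9:66946076-66946105, plus strand: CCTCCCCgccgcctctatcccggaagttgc
The longest run was 18 bases in Rpl35, 10 in Rps6 and 2 in Rpl7l1.

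Over the 68 genes the median longest run in the window was 7 bases, against 5 over the 11687 genes with a value on the arrays and a window. A run of 8 or more bases was present in 26 of them (38.2%), against 13.7% of those 11687 genes. The letters CTTTC on the strand of the gene were in the windows of 16 of the 68 (23.5%), among them Rplp2, Rpl28 and Rpl35, and in those of 4.12% of the genes with a value. On the other strand they were in 3 of the 68 (4.41%) and in 3.66%. These letters describe the annotated starts only, since a start that is off by a few bases moves the run.

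In the longer windows of 300 bases, 250 before and 50 after the start, both strands were searched for letters known from factors that bind such promoters. CCGGAAG, the core bound by ETS factors, was in 26 of the 68 genes (38.2%), against 17.6% of the genes with a value. ATGGCGG, part of the site of YY1, was in 11 (16.2%), against 8.34%. GGGCGG, the GC box, was in 41 (60.3%), against 61.7%.

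The signals used for all values are the processed intensities of the scanner software, scaled here, as the methods describe, so that the 2% trimmed mean of each array is 2500. A gene is given by its brightest probe, as log2 of the EP4 cKO signal over the Villin-Cre signal (the log2 ratio), and signals of different probes are not read as levels of their RNAs, since brightness also depends on the probe. Of the 89 genes, 85 had a probe well above background, in each case on both arrays. The other 4 (Rpl37, Rpl10l, Rpl39l and Rpl3l) were not well above background on either array and have no ratio. Rpl10l and Rpl39l are known from testis and Rpl3l from muscle. The only Rpl37 probe had signals of 103 and 41.5, whereas the probe of its retrocopy Rpl37rt had 595133 for Villin-Cre and 472300 for EP4 cKO (-0.33). Which transcripts these probes detect was not tested, and RefSeq lists 324 pseudogenes with such symbols that the probes may share bases with.

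Nearly all ribosomal protein genes had a somewhat lower scaled signal on the EP4 cKO array. The median log2 ratio over the 85 genes was -0.29, an 18.1% lower signal, with the middle 50% of genes between -0.38 and -0.21. The ratios ran from -0.57 (Rps15a) to 0.04 (Rps27l), with 81 genes below 0 and 4 above. Over all genes with a value 57.5% lay below 0 and 36.3% above. Among the 12808 genes measured on both arrays, 63% lay below 0 and the median was -0.15. Below that median lay 68 of the 85 (80%), where 50% of the 12808 genes lie by construction. By size, 27 lay between -0.3 and -0.2, 23 between -0.4 and -0.3 and 13 between -0.5 and -0.4. The direction against 0 depended on the scaling. With both arrays scaled to the spots of the E1A control RNA added in the laboratory, all 85 lay above 0, with a median of 0.77, as did the median of the genes measured on both arrays (0.91). Whether equal amounts of that RNA reached both samples was not tested. Set against that median, the ribosomal protein genes were lower by 0.14 with the trimmed mean and by 0.14 with the E1A spots.

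None of the 85 genes was past 2-fold in either direction, the threshold of the methods, where 4.89% of all 14668 genes with a value were past it upwards and 7.98% downwards. None was more than 1.5-fold lower either, against 18.7% of all genes. Of the 146 member probes measured on both arrays, 0 were past 2-fold, against 12.6% of all probes, and 140 lay below 0, against 56.9%. The spread of the genes was small, with an interquartile range of 0.17, where all genes with a value had 0.62. The 78 mitochondrial ribosomal protein genes had an interquartile range of 0.22, and 0 of them were past 2-fold.

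**Figure D1:**
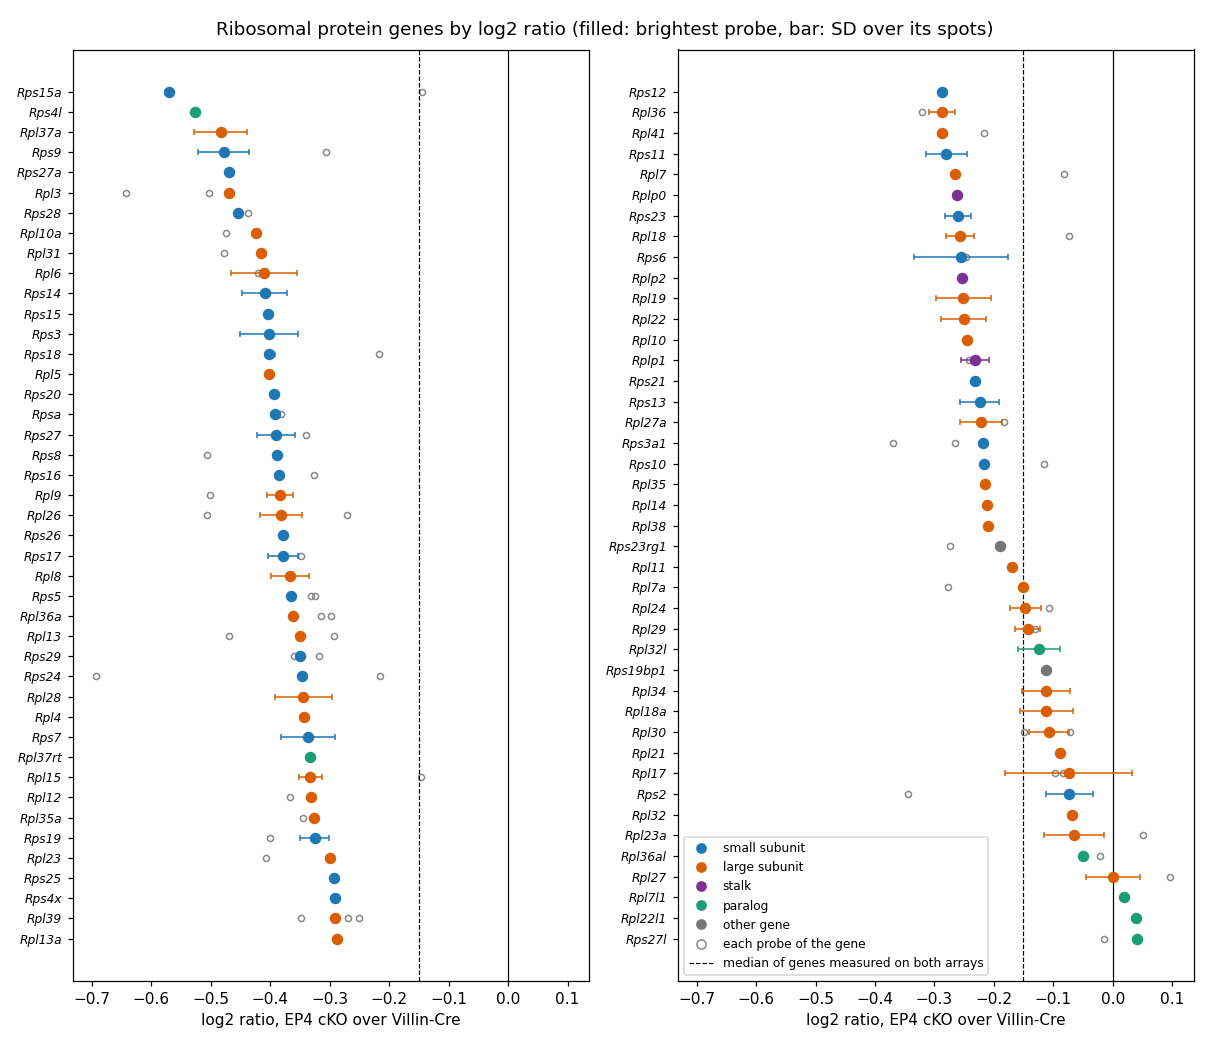
Log2 ratio of EP4 cKO over Villin-Cre (x axis) for the 85 ribosomal protein genes with a value, ordered from the lowest (Rps15a, -0.57) to the highest (Rps27l, 0.04). Filled points are the brightest probe, coloured by kind, bars its SD over the spots of 1 array pair (not over mice), open circles the gene's other probes, and the dashed line the median of genes measured on both arrays (-0.15).

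Small subunit genes lay lower than large subunit genes. The median log2 ratio was -0.37 over the 31 small subunit genes and -0.28 over the 42 large subunit genes with a value, a difference of -0.09 that ran from -0.10 to -0.06 under the other ways of processing. Of the 31 small subunit genes, 24 lay below the large subunit median, and 9 of the 42 large subunit genes lay below the small subunit median. Every small subunit gene lay below 0, from Rps15a to Rps2. The subunits therefore overlapped widely, and with 1 array per genotype the difference could not be tested.

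The small subunit reads the mRNA. Rps15a had 173004 in Villin-Cre and 116479 in EP4 cKO (log2 ratio -0.57), the lowest of all 85. Its second probe, spotted 10 times, gave 102130 and 92362 (-0.15 ± 0.027, SD over 10 spots), so the size of the difference at this gene depends on the probe. Rps9 had 290267 and 208398 (-0.48 ± 0.043, SD over 9 spots). Rps9 is among the proteins that bind ribosomal RNA early in assembly.

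Rps27a, made as a fusion with ubiquitin, had 408453 and 295006 (-0.47). Rps28 had 491207 and 358430 (-0.45), and its other probe gave -0.44. Rps14, next to the platform where the mRNA leaves, had 449925 and 338719 (-0.41 ± 0.038, SD over 9 spots). All of these lay well below the median of the genes measured on both arrays.

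Rps3, at the entry of the mRNA channel and also a DNA repair protein, had 227882 and 172441 (-0.40 ± 0.049, SD over 10 spots). Rpsa, also known as a laminin receptor, had 354957 and 270425 (-0.39), and its other probe gave -0.38. Rps6, the substrate of the S6 kinases downstream of mTORC1, had 210144 and 176043 (-0.26 ± 0.079, SD over 10 spots). One spot of this probe stood apart at -0.47, and the other probe of Rps6 gave -0.25.

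Rps2 was the small subunit gene nearest 0, at 123090 and 117007 (-0.07 ± 0.039, SD over 10 spots). Its other probe gave 133753 and 105397 (-0.34), so that it moves to the middle of the small subunit genes by that probe. Rps18 (647134 and 489837, -0.40) and Rps20 (630151 and 479635, -0.39) had some of the brightest member probes.

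The large subunit forms the peptide bond. Rpl37a had the lowest ratio there, with 593704 for Villin-Cre and 424572 for EP4 cKO (-0.48 ± 0.045, SD over 9 spots). Rpl3, which lies close to the site of peptide bond formation, had 331281 and 239308 (-0.47). All 3 probes of Rpl3 lay low, the others at -0.50 and -0.64.

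Rpl10a had 472467 and 352300 (-0.42) and Rpl31, near the exit of the peptide tunnel, 479305 and 359209 (-0.42). Rpl6 had 216875 and 163136 (-0.41 ± 0.056, SD over 10 spots). Rpl5 and Rpl11 join the 5S ribosomal RNA before it enters the large subunit, and when free they hold back Mdm2, the ligase that removes p53. Rpl5 had 142283 and 107702 (-0.40), whereas Rpl11 had 418401 and 372203 (-0.17), close to the median of the genes measured on both arrays. The pair therefore differed by more than the interquartile range of the members, each by a single probe with 1 spot.

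Among the brightest probes of the large subunit, Rpl41 had 638351 and 523231 (-0.29) and Rpl10, which is added last in assembly, 580624 and 489969 (-0.24). Rpl39 had the most probes of any member, and its 5 probes lay between -0.35 and -0.25. The stalk proteins recruit the elongation factors to the ribosome, and they lay close to each other. Rplp0, the base of the stalk, had 503756 and 420107 (-0.26). Rplp1 had 306405 and 260956 (-0.23 ± 0.024, SD over 8 spots), and Rplp2 had 588237 and 493293 (-0.25).

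At the other end stood 5 standard large subunit genes between -0.09 and 0.00. Rpl21 had 156611 and 147222 (-0.09), Rpl17 163550 and 155338 (-0.07 ± 0.11, SD over 10 spots) and Rpl32 382327 and 364657 (-0.07). Rpl23a, at the tunnel exit, had 153816 and 146991 (-0.07 ± 0.051, SD over 7 spots), and its other probe lay above 0 at 0.05. Rpl27 had 192302 and 192356 (0.0004 ± 0.045, SD over 10 spots), and its other probe gave 0.10, so it was the 1 standard gene with every probe above 0.

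**Figure D2:**
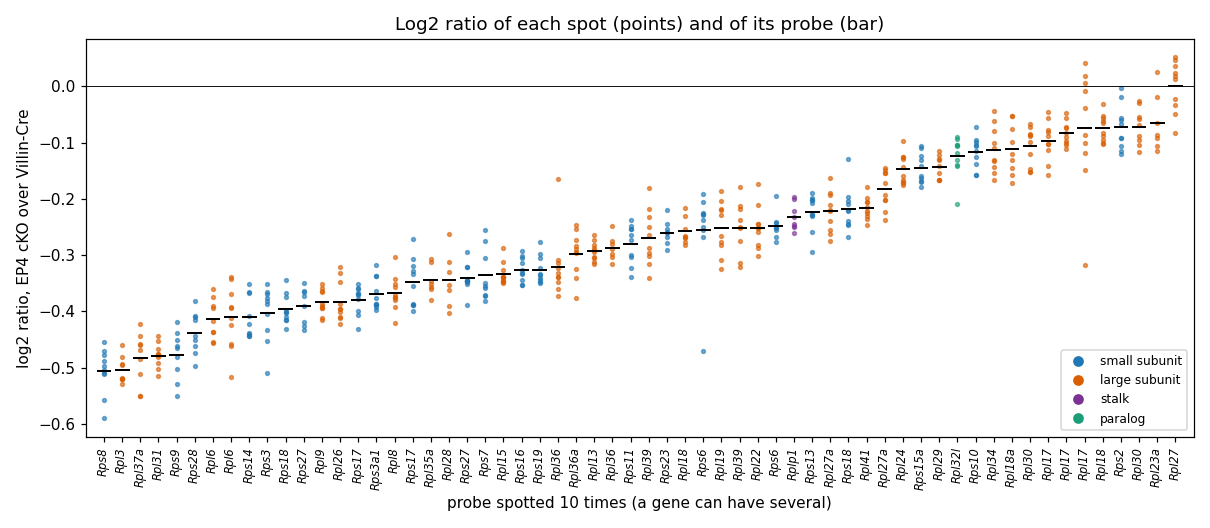
Log2 ratio of EP4 cKO over Villin-Cre (y axis) of each used spot of the 60 member probes spotted 10 times (points), with the ratio of the probe as a bar, ordered by ratio and coloured by kind. Every spot lay below 0 in 57 of the 60 probes, and the spots show the error of the array, not that between mice.

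The spread between spots of a probe was smaller than the spread between members. The 60 probes spotted 10 times, from 48 genes, had a median SD of the log2 ratio over their spots of 0.034, from 0.017 to 0.11. In 57 of them every used spot lay below 0, in 3 the spots lay on both sides, and in 0 all lay above. Different probes of the same gene differed more. Among 46 genes with several probes measured on both arrays the median distance between the highest and the lowest probe was 0.073. In 43 of these all probes lay below 0, in 2 (Rps27l and Rpl23a) on both sides, and in Rpl27 above 0. Matching counts for the spots and probes of all genes were not determined. Of all probes, 56.9% lay below 0. The largest distances were 0.48 at Rps24, whose 3 probes gave -0.35, -0.22 and -0.69, and 0.43 at Rps15a. Rps24 is spliced into several forms in many tissues, and which forms its probes detect was not determined here.

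The paralogs were spread over the range of the members. Of the 10, 7 had a value, with a median of -0.05 and 4 below 0 (57.1%), near the 57.5% of all genes, and 3 above. Rps4l and Rpl37rt lay below the median of the standard genes. The median of the paralogs changed sign with the processing, from -0.23 without a filter on dim probes to 0.11 with the 75th percentile and 1.01 with the E1A spots. Rps27l, a target of p53 in other settings, had 67687 in Villin-Cre and 69641 in EP4 cKO (0.04), and its other probe gave -0.01. Rps27, its close relative, had 416789 and 318081 (-0.39 ± 0.032, SD over 8 spots), and its other probe gave -0.34. The log2 ratio of the paralog was thus higher by 0.43.

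Rpl22l1, which can take the place of Rpl22 in ribosomes, had 65270 and 67052 (0.04), whereas Rpl22 had 105751 and 88867 (-0.25 ± 0.037, SD over 10 spots). Rpl7l1, a factor of large subunit assembly, had 1146 and 1161 (0.02), with Rpl7 at -0.27. Rpl36al had 61515 and 59432 (-0.05), with Rpl36a at -0.36. In these 4 pairs the ratio of the paralog was higher than that of the gene it resembles, by 0.29 to 0.43 with the brightest probes. The gap was smaller with normexp and quantile normalization, at 0.029 for Rpl36al, 0.14 for Rpl22l1, 0.23 for Rps27l and 0.24 for Rpl7l1. By the other probe of Rpl7, at -0.08, the gap of Rpl7l1 was 0.10.

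The retrocopy Rpl32l ran the other way, though only just, with 209369 and 192104 (-0.12 ± 0.035, SD over 10 spots) beside Rpl32 at -0.07. Rps4l, an autosomal relative of Rps4x, had 13348 and 9262 (-0.53), the second lowest ratio of all 85, beside Rps4x with 161817 and 132230 (-0.29). Relative to the median of genes measured on both arrays, Rps4l lay at -0.38 or lower under every way of processing that was run, and no other member with a value stayed as low in all of them. The 2 genes that share only the symbol were dim, Rps19bp1 with 4494 and 4157 (-0.11) and Rps23rg1 with 1023 and 897 (-0.19).

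**Figure D3:**
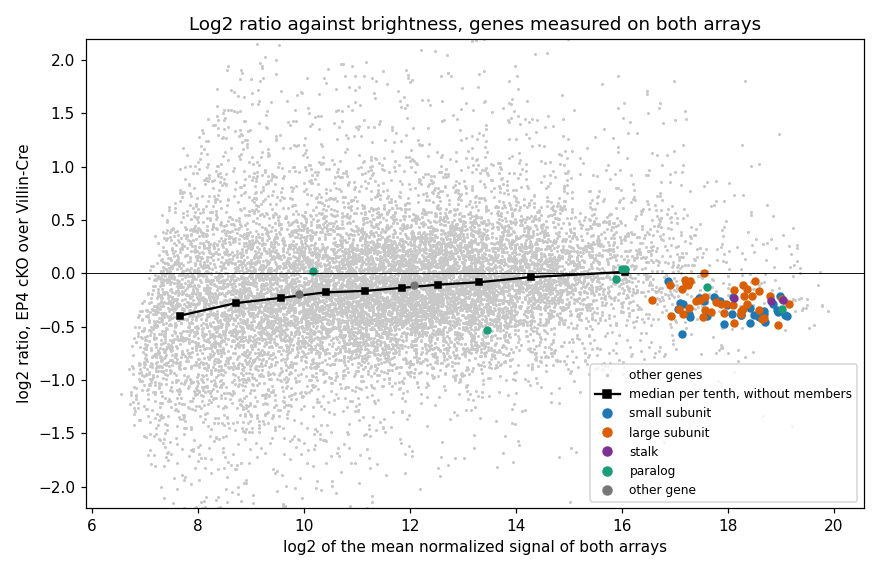
Log2 ratio of EP4 cKO over Villin-Cre (y axis) against log2 of the mean normalized signal (x axis) for the genes measured on both arrays (grey) and the ribosomal protein genes (coloured by kind), with the median of the other genes in each step of 10% of the genes by signal (black squares). Ribosomal protein genes lie mostly below the black line at its bright end, which is at 0.01, and 197 of the 12808 genes lie beyond the y axis at 2.2 in either direction.

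Brightness moved with the ratio on these arrays, so the ribosomal protein genes were also set beside other bright genes. Of the 85, 81 had signals in the brightest 10% of the genes measured on both arrays. The 1200 other genes in that 10% had a median log2 ratio of 0.01, and 48.9% of them lay below 0, whereas the dimmest 10% had a median of -0.40. There were 377 other genes at least as bright as the dimmest standard ribosomal protein gene. Their median was 0.02 with quartiles at -0.25 and 0.36, and 27 of them were past 2-fold higher, against 6 past 2-fold lower. Against these the ribosomal protein genes lay lower by 0.31, and by 0.30 to 0.32 under every other way of processing that was run, the E1A scaling included.

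Within the 85 genes the ratio was lower at brighter probes, with Pearson's r of -0.33 and Spearman's rho of -0.32 across genes. Over the 76 standard genes they were -0.23 and -0.21. Genes are not independent replicates, brightness depends on the probe as well as on the RNA, and these values are a description. For each set of letters compared, the median ratio was slightly higher in genes with it than without it, and the gaps were not tested. The median was -0.26 in the 15 genes with CTTTC near the start and a value, and -0.29 in the 49 without it. It was -0.25 in the 24 genes with CCGGAAG and -0.31 in the 40 without, and -0.22 in the 11 with ATGGCGG and -0.29 in the 53 without. Rps9 and Rps15a, among the lowest, and Rpl22l1, among the highest, all had runs of 9 or 10 pyrimidines in the windows shown above. The other low genes shown had runs of 3 (Rpl37a), 4 (Rps28) and 7 (Rpl10a). The other high genes shown had runs of 2 (Rpl7l1), 5 (Rpl27 and Rpl36al) and 7 (Rps27l). The relation of run length to the ratio was not tested.

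Other parts of the machinery for making proteins were described by lists. Of ribosomal proteins without the prefix, Fau, made as a fusion with a ubiquitin-like protein, had a log2 ratio of -0.24, and Rack1, a scaffold on the small subunit, had -0.34. All 5 elongation factors lay below 0, where 63% of the genes measured on both arrays did, with a median of -0.39. Eef1g had 132689 for Villin-Cre and 80020 for EP4 cKO (-0.73), the lowest of them, and Eef1d 80207 and 69828 (-0.20), the highest.

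Among 12 initiation factors and other mRNAs with a TOP motif, 11 lay below 0 (91.7%, beside the same 63%), with a median of -0.23. Eif4a2, a helicase of initiation, had 39271 and 18691 (-1.07), past 2-fold lower. Pabpc1, the poly(A) binding protein, ran the other way with 60291 and 76392 (0.34). The medians of the elongation factors and of these 12 genes stayed below that of the genes measured on both arrays under every way of processing that was run.

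Of 25 ribosome assembly factors 16 lay above 0 and 9 below (36%, beside 63%), with a median of 0.03, which is 0.18 above the genes measured on both arrays and stayed above them, by 0.15 to 0.18, under the other settings. Ltv1, a factor of small subunit maturation, had 5465 and 7813 (0.52), and Tcof1, the Treacle protein of the nucleolus, 3222 and 2271 (-0.50). RNA polymerase I and its factors, which transcribe ribosomal RNA, had a median of -0.41 with 8 of 9 genes below 0 (88.9%, beside 63%). Ubtf, its upstream binding factor, had 143717 and 83753 (-0.78), and Taf1b 797 and 880.2 (0.14).

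Genes of mTORC1 and of TOP control lay on both sides, 10 of 15 below 0 (66.7%), near the 63% of the genes measured on both arrays, with a median of -0.11. The translation repressor Eif4ebp1 had 5626 and 7875 (0.49), whereas its relative Eif4ebp2 had 9035 and 6166 (-0.55). Larp1, which binds the TOP motif, had 28617 and 26564 (-0.11). The 78 mitochondrial ribosomal protein genes, with 56 below 0 (71.8%, beside 63%), had a median of -0.09. Both of these medians lay above that of the genes measured on both arrays with the trimmed mean and below it with normexp and quantile normalization. With loess on brightness the mitochondrial median was only 0.002 above it, and 0.0002 with loess fitted without the members. The median of mTORC1 and TOP control was 0.04 above it with either loess.

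**Figure D4:**
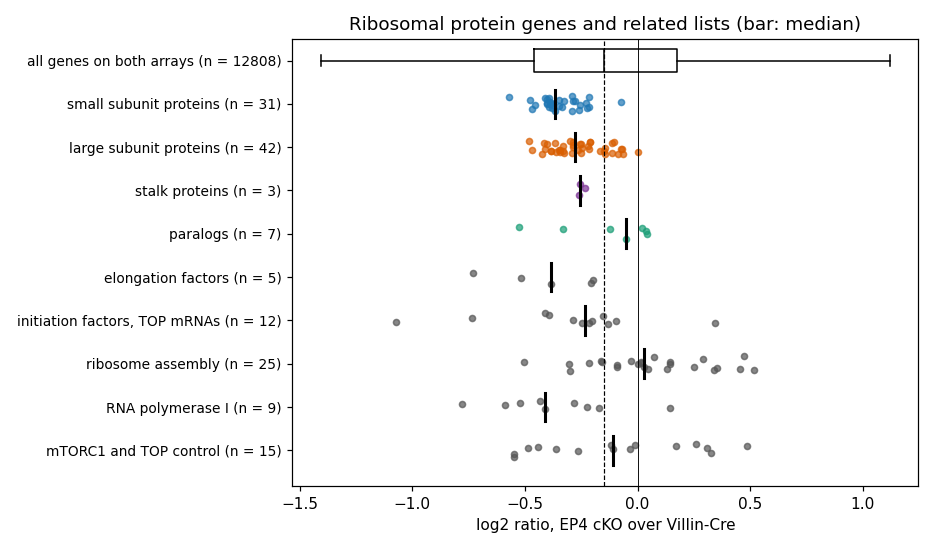
Log2 ratio of EP4 cKO over Villin-Cre (x axis) of each gene (points) in the kinds of ribosomal protein gene and in related lists, with the median of each as a bar and a box plot of the genes measured on both arrays on top (box: quartiles, whiskers to 1.5 times the interquartile range, dashed line: median). The small subunit, with a median of -0.37, lies below the large subunit at -0.28, and ribosome assembly lies around 0.03.

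The arrays also differed in genes that mark cell types of the colon. Summed over 4 of 5 fibroblast markers with a value, the signal was 11447 in the control and 249.7 in EP4 cKO, and all 4 were past 2-fold lower. Of these, Col1a1 and Lum were not well above background on the EP4 cKO array, so that their part of its sum is only a bound. The 5 epithelial markers summed to 1015460 and 1459260, sums that the brightest probes weigh most in. Krt20, of mature surface cells, had 146575 and 510711 (log2 ratio 1.80), Epcam was at 0.56, Vil1 at 0.52, Krt8 at 0.05 and Cdh1 at -0.10, with a median of 0.52. The 3 goblet cell markers summed to 720380 and 657612, with Tff3 at -0.75, Muc2 at -0.06 and Agr2 at 0.35. For smooth muscle, 3 of 4 markers had a value and summed to 18516 and 27900 (Myh11 was not well above background). That sum was nearly all Acta2 (18006 and 27719, log2 ratio 0.62), while Cnn1 had 479 and 72.3 (-2.73) and Des was well above background on the EP4 cKO array alone, with a bound that gave no difference. The 4 T cell markers summed to 5086 and 5348, with Cd3e at -0.10 and Lck at -0.03 but Cd2 at 0.91 and Cd3g at 1.28. For 2 of 4 macrophage markers the sums were 5247 and 3167 (Adgre1 and Lyz2 were not well above background). That sum was mostly Csf1r (4874 and 2817, log2 ratio -0.79), while Cd68 had 373 and 351 (-0.09). For 2 of 3 neutrophil markers the sums were 373 and 1043 (S100a8 was not well above background on the Villin-Cre array). By staining, the paper reports more macrophages in EP4 cKO colons and no significant difference in neutrophils. Only 2 of 4 neuron and glia markers had a value, at 3216 and 1456, and 1 of 3 endothelial markers, at 172 and 152. Of the 5 plasma and B cell markers 2 had a value and summed to 209.7 and 336 (Cd79b was not well above background on the Villin-Cre array). Of the 3 pancreas markers Cela1 alone had a value, at 323570 and 159109 (-1.02), past 2-fold lower. Prss2 and Cpa1 were not well above background, so these markers cannot tell whether the Cela1 signal came from pancreas. The part of these differences in the ratios of the ribosomal protein genes was not tested. In RNA of bulk tissue, fewer cells of a type and less RNA per cell cannot be told apart.

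**Figure D5:**
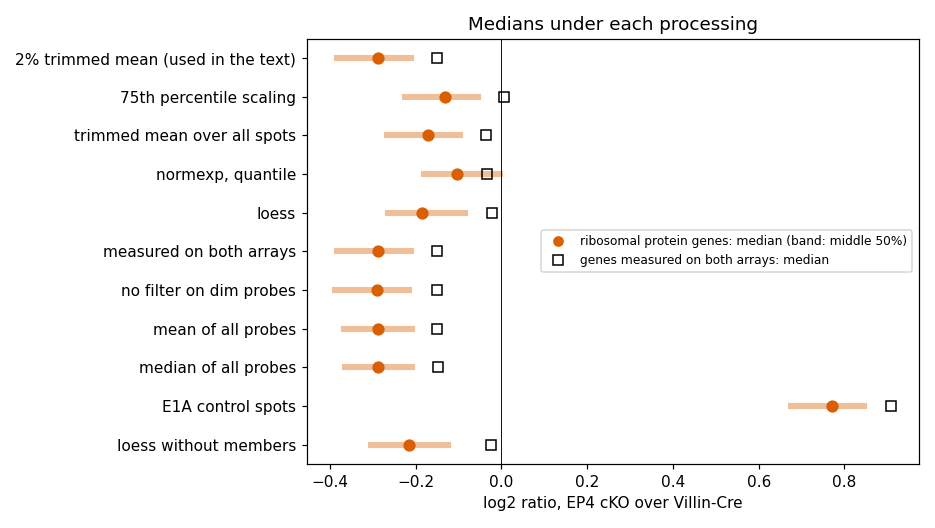
Median log2 ratio of EP4 cKO over Villin-Cre (x axis) of the ribosomal protein genes (orange points, band for the middle 50% of genes) and of the genes measured on both arrays (open squares) under each way of processing (rows). The orange point lies left of the square in each row, by 0.07 (normexp) to 0.19 (loess without members), while both medians lie above 0 with the E1A control spots.

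The median of the ribosomal protein genes lay below that of the genes measured on both arrays under all 11 ways of processing. Of the 85 genes, 51 lay below that median in every one, among them Rps4l, Rps27a, Rpl3 and Rps28, and 8 lay above it in every one, namely Rpl7l1, Rpl27, Rps27l, Rpl22l1, Rpl32, Rpl23a, Rpl17 and Rps19bp1. The median of the members lay below 0 in each way of processing but the E1A scaling, where 0 of the 85 genes did. With the trimmed mean and under each of 8 other ways of processing, 62 genes lay below 0. These 8 did not use the E1A spots or a loess without the members. How many of all genes kept to the same side of that median, or of 0, throughout was not determined. Settings that only rescale the arrays shift all genes nearly alike, so they can hardly change the side of that median.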

How the data were processed

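Gene expression was measured on 2 Agilent arrays of mouse whole colon RNA, 1 per genotype, both on 1 slide, with the genotype taken from the labels. The authors deposited the scanner output, in which the intensity of each spot (the processed signal) is background-subtracted and detrended but not scaled between arrays. The software was Feature Extraction 12.0.3.1 per the file headers and 11.5.1.1 per the labels. Control spots were dropped, as were spots that either array flagged as outliers, spots of a probe were averaged, and each array was scaled to a 2% trimmed mean of 2500 (factors 3.45 and 2.68), as in the methods. Scaling makes ratios relative to the other genes of the array. Probes well above background numbered 25683 (45.4%) and 29177 (51.6%) of 56593. A probe well above background on 1 array only was held to a bound, with floors of 125 (Villin-Cre) and 57.8 (EP4 cKO), and where the bound gave no difference the log2 ratio was set to 0. No member needed a bound, and no member spot was saturated. Of the 692 member spots per array, 659 were used.

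Probes were named by their RefSeq accession through a gene table of GRCm38.p6, which matched 32989 of 56593 probes (58.3%). The grid of the arrays refers to another build, so coordinates are given only for the RefSeq start windows. The members and lists were chosen with earlier results of these data known. The genes named are the stalk genes, Rpsa, Rpl5, Rpl11, Rps6, the paralogs, the 10 lowest and 10 highest ratios, the 5 brightest and 5 dimmest members, members past 2-fold or with probes over 1 apart, and members with a probe spotted over 5 times (these mostly as ranges), and of each related list the highest and lowest gene. Other genes, such as Larp1, Rps24 and the relatives of the paralogs, were singled out after their values were seen. The values of some single genes and of a list that needs them are not reported here.

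No test was possible between single arrays, so no p-value is given, and the number of arrays limits the precision. Alternatives were scaling to the 75th percentile, a trimmed mean over all spots, normexp (offset 50) with quantile normalization, loess on brightness (span 0.3), other filters on dim probes, the mean or median of all probes, thresholds of 1.5-fold and 3-fold, and the standard genes alone. Normexp used the median signal of each spot, since the mean signal was not used here. Scaling to E1A control spots, loess without the members, the differences between medians and the gaps of the paralogs were alternatives chosen after seeing the data. The ratios and calls were also tested on simulated data. Python 3.11.15 with numpy 2.4.6, pandas 2.3.3, scipy 1.17.1, matplotlib 3.10.9 and statsmodels 0.14.6 were used, with limma 3.58.1 under R 4.3.3.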

Additional observations from a re-analysis of the deposited data

How the results depend on the processing

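The median log2 ratio of the ribosomal protein genes was -0.29 with the trimmed mean. It was -0.13 with the 75th percentile, -0.17 with a trimmed mean over all spots, -0.10 with normexp and quantile normalization, -0.19 with loess, -0.22 with loess fitted without the members and 0.77 with the E1A control spots. The median of the genes measured on both arrays shifted with it, by 0.16, 0.12, 0.12, 0.13, 0.13 and 1.06 on the log2 scale. The 7 E1A probes had log2 ratios of -0.78 to -0.56 before scaling. Relative to the genes measured on both arrays the median of the members lay at -0.14, at -0.071 with normexp and quantile normalization and at -0.19 with loess fitted without the members, and between these under the other settings. The sign of the ratio changed in 14 genes with the 75th percentile, in 10 with all spots, in 17 with normexp, in 7 with loess, in 2 with loess without the members and in 81 with the E1A spots. Genes past 2-fold numbered 0, but 4 without a filter on dim probes (the genes not above background) and 5 with the E1A spots. Probes past 2-fold numbered 0, but 5 without the filter and 9 with the E1A spots, and 2 probes were past 1.5-fold. The matching shares of all genes and probes were not determined for these settings. With the E1A spots the median of the genes measured on both arrays was itself 0.91. No array could be left out. No paired analysis was possible because each genotype had 1 array. Signal over background left 4 members without a ratio.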
